A study of Mus musculus with 12 samples.

Results

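Interleukin 7 and other cytokines that signal through the common gamma chain were followed here through 9 genes that encode receptor chains and kinases. The genes were taken by name and were Il7r, Il2rg, Il2rb, Il2ra, Il4ra, Il15ra, Il21r, Jak1 and Jak3. They are 9 of the 50600 gene identifiers in the files. All 9 passed the filter on low counts and were among the 16396 genes tested. The libraries were made from polyadenylated RNA of CD8+ T cells, the cytotoxic T lymphocytes, taken from the lymph nodes of male C57BL/6J mice aged 8 weeks. The labels name no transgene, mutation or treatment, and the mice were kept in constant darkness, so that the internal clock alone set their time. Collection covered 2 days, with cells taken on both at circadian time (CT) 2, 6, 10, 14, 18 and 22 h. There was 1 library per time and day, 12 in all, and the labels do not give the number of mice behind each. The p-values therefore measure only the spread between these samples, which may be technical.

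Common gamma chain receptors are built from shared parts. The product of Il2rg, the common gamma chain, pairs with a second chain that recognises the cytokine: the interleukin 7 receptor alpha chain, the interleukin 4 receptor alpha chain, the interleukin 21 receptor, or the interleukin 2 receptor beta chain, which serves both interleukin 2 and interleukin 15. The kinase JAK3 sits on the gamma chain and JAK1 on the partner chain, and together they activate STAT factors. In resting T cells, interleukin 7 is the main survival signal, and the amount of its receptor is known to fall when the cell receives cytokine and to be raised by the factor FOXO1 and by glucocorticoids.

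Each library held between 24689964 and 33497078 counts assigned to genes. The lowest count of any of the 9 genes in any library was 449 (Il2ra), which leaves a counting error of 4.72%, and for Jak1 the counting error was at most 0.566%. The 6 T cell and CD8 markers were present in all libraries and summed to between 4309 and 5394 CPM, a count scaled to the size of its library. Markers of other cells were also found. No gene of these lists was at 0 in all 12 libraries, but Ly6g, Pdpn and Ccl19 did not pass the filter on low counts. The marker sums ranged from 659 to 2048 CPM for 15 monocyte and macrophage genes, from 379.8 to 732 for 9 dendritic cell genes, from 182 to 363 for 10 B cell genes and from 89.6 to 233 for 9 NK cell genes. The ranges were 115 to 159.6 for 6 regulatory T cell genes, 65.7 to 105 for 4 CD4 T cell genes, 11.4 to 97.8 for 6 neutrophil genes and 139.9 to 183 for 9 stromal and endothelial genes. Most of the stromal and endothelial sum was the single gene Pecam1, at 129 to 167 CPM, while Col1a1 averaged 0.977 and Lyve1 0.901 CPM. CT10 of day 1 and CT2 of day 2 stood apart, with the 2 lowest sums for dendritic cells, NK cells, regulatory T cells, CD4 T cells and monocytes. CT6 of day 1 held the lowest T cell and CD8 sum, 4309 CPM. It also held the highest dendritic, regulatory T, CD4 T cell and stromal and endothelial sums, 732, 159.6, 105 and 183 CPM. In this library Il2rg, Il4ra, Il21r, Jak1 and Jak3 had their lowest CPM and Il15ra its highest, and the part of its cell content was not tested. The libraries of CT2 also differed most between days, where chi-square over its degrees of freedom was 40.2, against 3.07 to 10.6 at the other times. In bulk RNA, fewer cells of a type and less RNA per cell cannot be told apart.

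The 9 genes spanned a wide range of levels. On the per-length scale of the deposited TPM (transcript abundance corrected for gene length), Il2rg was the most abundant at 611 ± 37.7 (SD, n = 12). Jak1 followed at 319 ± 24.02, Il7r at 187 ± 27.7 and Il2rb at 151 ± 14.0 TPM (SD, n = 12). Il21r stood at 110.5 ± 10.96, Il4ra at 68.1 ± 3.52 and Jak3 at 47.0 ± 6.84 TPM (SD, n = 12). The receptor alpha chains for interleukin 15 and interleukin 2 were the lowest, with Il15ra at 24.4 ± 3.55 and Il2ra at 9.12 ± 2.45 TPM (SD, n = 12). The gamma chain thus had the highest level of all receptor chains in all 12 libraries. Its TPM was 1.91 times that of Jak1 as a ratio of means, and from 1.76 to 2.05 times within single libraries. Among neighbours in this order, the ranges of Il7r and Il2rb overlapped, and Il7r was higher in 10 of 12 libraries. The ranges of Il2rb and Il21r also overlapped, although Il2rb was higher in 12 of 12. All other neighbours were separated without overlap. The 2 kinases, which act as a pair on each receptor, were far apart, with Jak3 at 35.3 to 58.3 TPM and Jak1 at 254 to 352 TPM. TPM in CT2 of day 1 ran low against CPM for genes in general, by a median of -0.23 log2, so changes over time are given below in CPM.

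**Figure D1:**
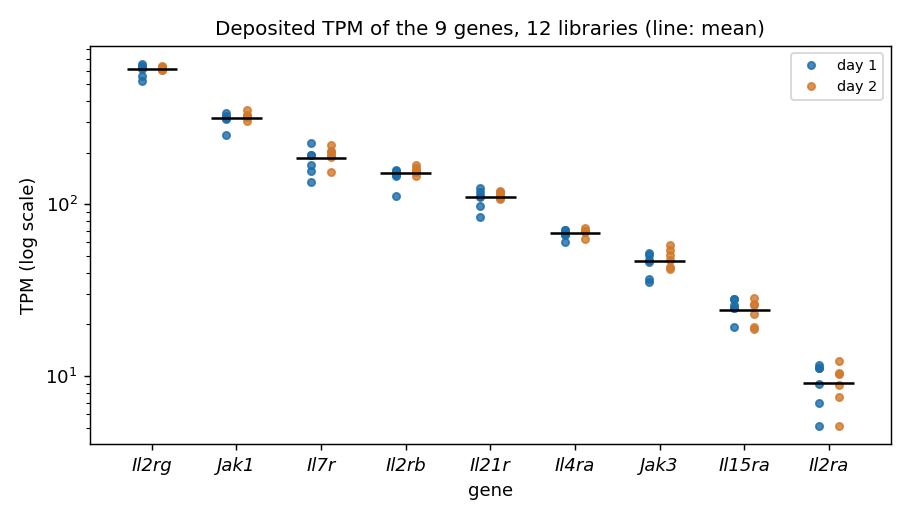
Deposited TPM on a log axis for the 9 genes ordered by mean, with 1 point per library (6 per day, coloured by day) and a line at the mean. Il2rg is highest at a mean of 611 and Il2ra lowest at 9.12, and only the ranges of Il7r with Il2rb and of Il2rb with Il21r overlap between neighbours.

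Whether these levels follow the time of day was asked with a test of a 24 h wave and a test of any difference among the 6 circadian times, both with edgeR's quasi-likelihood F test and Benjamini-Hochberg adjustment over all 16396 genes. No member passed either test at an adjusted p under 0.05. In the 24 h test 0% of all genes passed, and in the test of times 0.256% did (42 genes). The latter count was 20 with the day as a block, and with 1 library left out it ran from 6 (without CT14 of day 2) to 664 and 1745 (without CT2 of day 1 and of day 2). At an unadjusted p under 0.05, the 24 h test held 1 of the 9 members (Il2rb) against 13.3% of all genes, and the test of times held 1 (Il7r) against 12.7%. These shares are near the background. By DESeq2's likelihood ratio test, 0 members passed the 24 h test, in which 1.86% of genes passed, and 1 member, Il7r, passed the test of times, in which 3.64% passed.

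The amplitudes, by which the peak of the fitted 24 h wave exceeds its mean on the log2 scale, were small. Their median over the 9 genes was 0.07, beside 0.10 over all tested genes and 0.07 over those averaging 5 CPM or more. The median difference between the highest and the lowest time was 0.21 log2, against 0.34 over all tested genes and 0.22 over those of at least 5 CPM. A bound of the amplitude plus 2 standard errors came to 0.07 for Jak1 and 0.08 for Il4ra, to 0.24 for Il7r and to 0.47 for Il2ra. For Jak1 and Il4ra the libraries thus leave room only for a small 24 h wave, and for Il2ra they leave room for a larger one. The Il2ra amplitude of 0.20 ± 0.13 was 0.35 without CT6 of day 1 and 0.13 without CT2 of day 2.

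**Figure D2:**
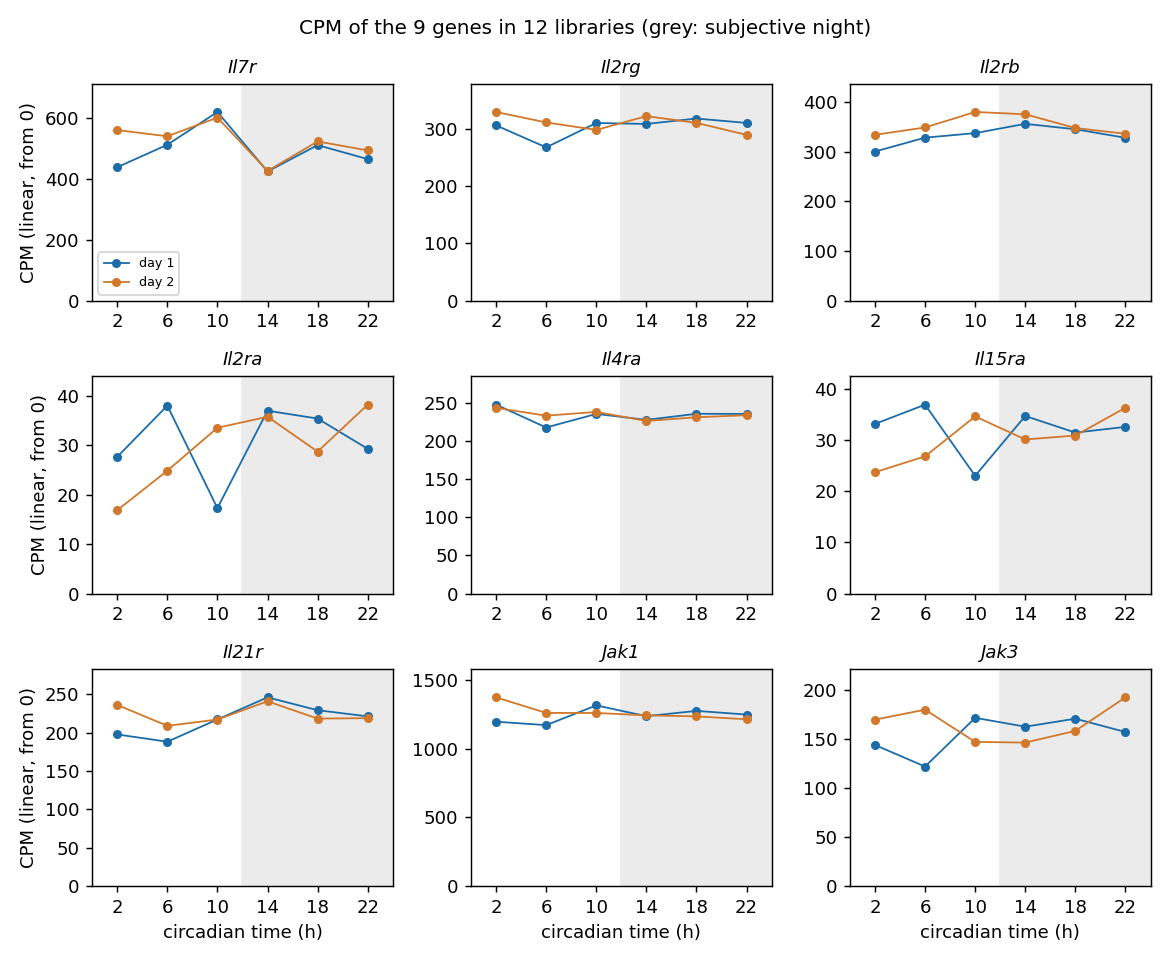
CPM on a linear axis from 0 against circadian time, 1 panel per gene and 1 line per day, with grey from CT12 to CT24 for the subjective night. Il7r is highest at CT10 and lowest at CT14 on both days, whereas Il2ra and Il15ra fall to their lowest values at CT10 on day 1 and at CT2 on day 2.

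Il7r, the alpha chain that recognises interleukin 7, showed a fall between the last time of the subjective day and the first of the subjective night on both days. It stood at 620.2 CPM on day 1 and 602 CPM on day 2 at CT10, and at 425 and 427 CPM at CT14. The CT10 pair were the highest and the CT14 pair the lowest of all 12 libraries, and neither overlapped with any other time. At CT18 the values were 511 and 523 CPM, at CT22 465 and 494, and at CT6 512 and 540. At CT2 they were 439 and 561 CPM, a gap between days that was wider than at any other time. The difference between CT10 and CT14 was 0.52 ± 0.10 log2 (± is a standard error here and for every log2 difference and amplitude). The unadjusted p of the test of times was 0.00598 and the adjusted p 0.205 by edgeR. Both libraries of some time were the highest pair of 12 in 16.2% of all genes and in 3 of the 9 members, Il7r at CT10, Il4ra at CT2 and Il21r at CT14. Both libraries of some time were the lowest pair in 13.0% of all genes and in 1 member, Il7r at CT14. At these times alone, the CT10 pair was highest in 2.90% of genes and the CT14 pair lowest in 5.07%. Both together occurred in 35 genes, 0.213% of those tested, a pattern that was set after Il7r had been seen. For any 2 times, the share of genes with 1 pair highest and another lowest was 2.31%. The 24 h wave fitted to Il7r had an amplitude of 0.11 ± 0.06 and an adjusted p of 0.571 by edgeR.

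The call for Il7r changed with the CT2 libraries, the tool and the filter, while the size of the difference changed little. The difference between CT10 and CT14 stayed between 0.50 and 0.54 log2 in all 23 alternatives that could give it. It is set by the CT10 and CT14 libraries alone. Settings that left out other libraries could thus move it only through the scaling, and they do not test its size. Its adjusted p in the test of times was 0.0014 by DESeq2, and by edgeR 0.00406 without CT2 of day 1, 0.0019 without CT2 of day 2 and 0.00384 without both. Leaving out 1 CT2 library takes the wide gap between the CT2 libraries out of the residual spread, which the other 5 times then set alone. With no filter on low counts it was 3.21e-06, and without the 2 libraries lowest in other cell markers it was 0.00583. In the other 17 alternatives the adjusted p lay between 0.185 and 0.597. Marker sums of other cells also differed between these times. At CT10 of days 1 and 2 they were 659 and 1009.6 CPM for monocytes and macrophages, 89.6 and 167 for NK cells, 11.5 and 18.4 for neutrophils and 399 and 681 for dendritic cells. At CT14 they were 1012 and 1239.9, 153 and 174, 27.3 and 22.7, and 727 and 654 CPM, in the same order of cell types. Their part in the Il7r values was not tested.

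**Figure D3:**
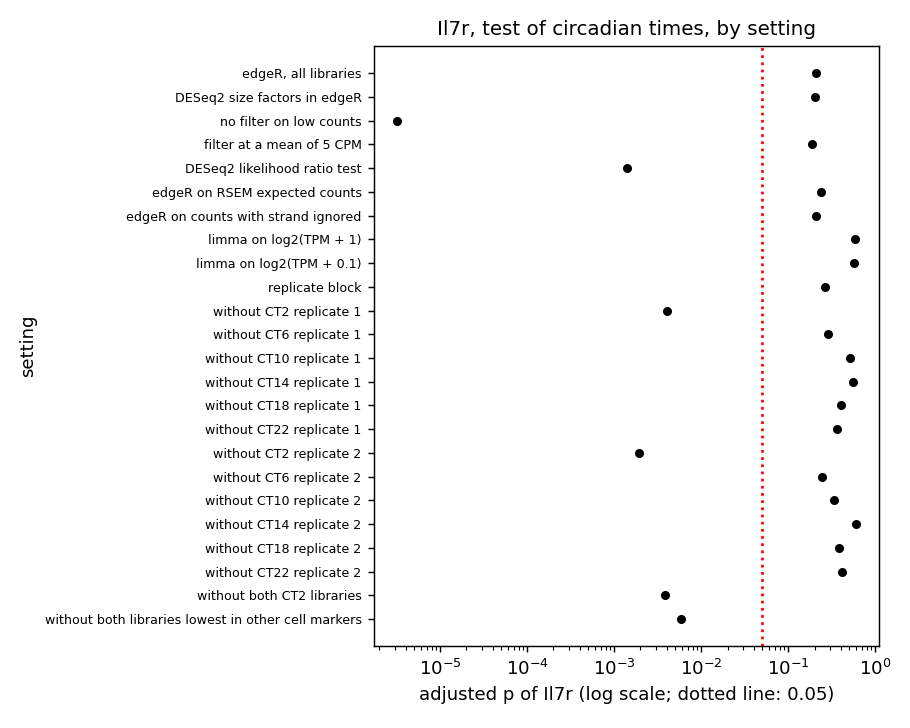
Adjusted p of Il7r in the test of circadian times on a log axis, 1 point per setting of the analysis, with a dotted line at 0.05. The setting with all libraries gives 0.205, and 6 settings lie below the line, 4 of which leave out at least 1 of the CT2 libraries.

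The Il7r gene (ENSMUSG00000003882.4) lies on chromosome 15 from 9505788 to 9530176 on the minus strand of GRCm38. The stretch upstream of its RefSeq start is shown because it holds a match to the STAT motif, the site bound by the factors that act below this receptor. It covers chr15:9529877-9530040 (GRCm38.p6, minus strand, 164 bases up to the base before the start) and lies in an intron of another GENCODE M21 transcript of Il7r that starts further upstream. It is printed 5′ to 3′ with the match in capitals, whose first base is 142 bases before the start.
Il7r upstream: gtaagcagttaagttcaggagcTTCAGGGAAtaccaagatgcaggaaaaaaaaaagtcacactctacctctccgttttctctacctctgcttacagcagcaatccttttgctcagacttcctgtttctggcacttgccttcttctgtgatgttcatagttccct
Motifs were searched on both strands in RefSeq windows from 250 bases before to 50 after the start, of which 9 belonged to 8 of the 9 genes. Il2rb had no entry. The STAT motif TTCNNNGAA was in 1 of the 9 windows (Il7r) and in 8.30% of all 32851 windows. The FOXO motif GTAAACA was in 1 (Il21r) and in 3.65% of all. The clock motifs E-box CACGTG and D-box TTANNTAA were in 0 of the 9, and in 7.15% and 6.00% of all. None of the other 3 motifs matched in the Il7r window, so its match overlapped none of them. A match describes letters and not a bound site.

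Il2rg (ENSMUSG00000031304.18, chromosome X, 101264378 to 101268255, minus strand), the common gamma chain itself, was among the steadiest members. It ranged from 268 to 329 CPM with a median of 310.1 and a coefficient of variation of 5.24%, against a median of 7.46% over all genes of at least 5 CPM. The lowest value was CT6 of day 1 at 268 CPM, while CT6 of day 2 was 311 CPM. Its difference between CT2 and CT6, the highest and lowest means, was 0.13 ± 0.08 log2 (adjusted p = 0.770 by edgeR) and turned to -0.03 by limma on the TPM scale. The difference rested on CT6 of day 1, without which it was 0.03, and it was 0.25 without CT6 of day 2 and 0.08 without CT2 of day 2. The 24 h amplitude was 0.03 ± 0.03, and 0.0029 without CT6 of day 1.

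Il2rb (ENSMUSG00000068227.8, chromosome 15, 78479256 to 78495271, minus strand) encodes the beta chain through which T and NK cells signal on interleukin 2 and interleukin 15. It had the smallest p of the 9 genes in the 24 h test, with a fitted peak at 13.1 ± 1.14 h and an amplitude of 0.10 ± 0.03 (unadjusted p = 0.0166, adjusted p = 0.296 by edgeR). Its levels were 337 and 379.7 CPM at CT10 and 356 and 375 CPM at CT14, against 300.2 and 334 CPM at CT2 and 328 and 336 CPM at CT22. CT6 was at 328 and 349 CPM and CT18 at 345 and 347 CPM. The CT14 values lay above those of CT2, CT6, CT18 and CT22, while those of CT10 overlapped with CT6 and CT18. Il2rb was also higher on day 2 than on day 1 at 6 of 6 times, by 0.09 ± 0.03 log2 (unadjusted p = 0.0229, adjusted p = 1 by edgeR). In the day test 0% of all genes passed and 1.82% had an unadjusted p under 0.05. B cell markers also shifted between days, from sums of 257 to 363 CPM on day 1 to sums of 182 to 283 on day 2, and their part in the Il2rb values was not tested. NK cells carry much Il2rb, and its log2 CPM was set against the NK cell marker sum over the 12 libraries (Pearson r = -0.13, permutation p = 0.667, adjusted over 6 relations 0.743; Spearman rho = -0.38, p = 0.227). The r was -0.48 within day 1, 0.11 within day 2 and -0.63 (permutation p = 0.0505) without the 2 libraries farthest from the median. With the regulatory T cell sum it was 0.10 (permutation p = 0.743, adjusted 0.743), with a Spearman rho of 0.08 (p = 0.817), -0.05 within day 1, 0.38 within day 2 and -0.08 without the 2 libraries. In the NK cell sum, Tyrobp, Fcer1g and Gzma had the highest means (62.1, 32.5 and 30.5 CPM), against 11.2 for Ncr1 and 8.95 for Klrb1c. Tyrobp and Fcer1g were highest at CT22 and lowest at CT10, as was Lyz2 of the monocyte and macrophage list. Their part in the relation was not tested.

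Il4ra (ENSMUSG00000030748.9, chromosome 7, 125552120 to 125579474, plus strand) encodes the receptor alpha chain for interleukin 4. It varied least of all members, with a coefficient of variation of 3.34% and values from 217 to 247 CPM around a median of 234. The CT2 libraries were the highest pair at 247 and 243 CPM, and CT6 of day 1 was the lowest at 217. The difference between CT2 and CT6 was 0.12 ± 0.06 log2 (adjusted p = 0.660 by edgeR), and it turned to -0.04 by limma on the TPM scale. It was 0.07 without CT6 of day 1. Its relation with the B cell marker sum was weak (Pearson r = -0.29, permutation p = 0.354, adjusted 0.531; Spearman rho = -0.13, p = 0.699), at -0.14 within day 1, -0.72 within day 2 and -0.14 without the 2 farthest libraries.

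Il21r (ENSMUSG00000030745.9, chromosome 7, 125603429 to 125633570, plus strand), the next gene to Il4ra among the members on the chromosome, encodes the receptor for interleukin 21. It was highest at CT14, with 246 and 241 CPM, and lowest at CT6, with 188 and 209 CPM. The CT14 pair lay above all other libraries, the nearest being CT2 of day 2 at 236 CPM, whereas CT2 of day 1 was at 198 CPM. The difference between CT14 and CT6 was 0.29 ± 0.08 log2 (unadjusted p = 0.0873, adjusted p = 0.462 by edgeR), and the amplitude was 0.10 ± 0.04 with a fitted peak at 16.3 ± 1.4 h (adjusted p = 0.376). With 1 library left out, the difference between CT14 and CT6 ran from 0.22 to 0.37 log2. Beside the B cell marker sum, Il21r gave a Pearson r of -0.39 (permutation p = 0.212, adjusted 0.423) and a Spearman rho of -0.20 (p = 0.53), with r at -0.25 within day 1, -0.54 within day 2 and -0.34 without the 2 farthest libraries. Il7r and Il21r thus took opposite places at CT14, the first lowest and the second highest.

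**Figure D4:**
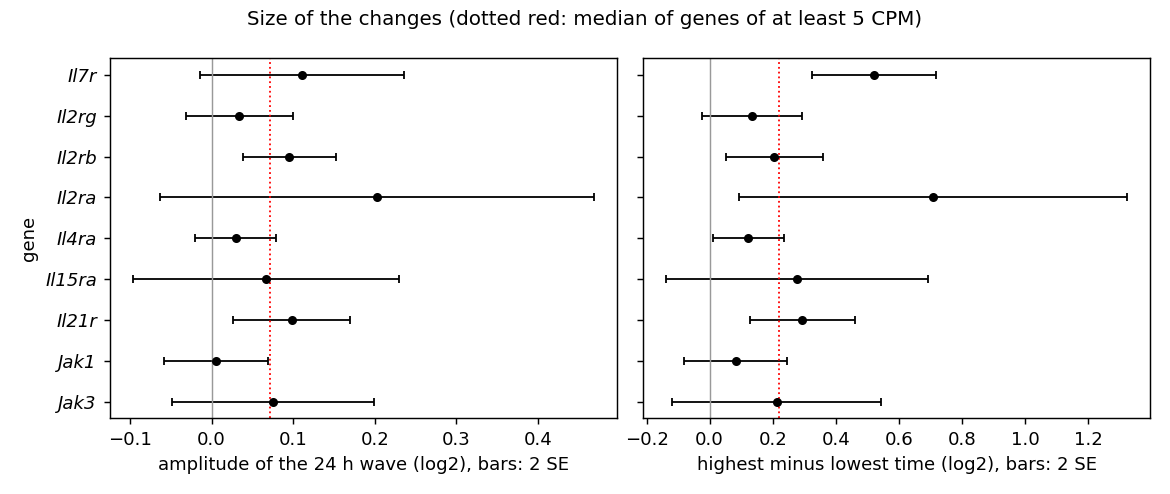
Amplitude of the 24 h wave (left) and difference between the highest and lowest circadian time (right), both in log2, for each gene, with bars of 2 standard errors on each side. The dotted lines are the medians of genes of at least 5 CPM, 0.07 and 0.22, and Il7r at 0.52 and Il2ra at 0.71 have the largest differences among the 9.

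Il2ra (ENSMUSG00000026770.5, chromosome 2, 11642807 to 11693193, plus strand) encodes the alpha chain that gives the interleukin 2 receptor its high affinity, and it is known as a marker of regulatory T cells and of activated lymphocytes. Il15ra (ENSMUSG00000023206.16, chromosome 2, 11705290 to 11734317, plus strand) encodes the alpha chain that presents interleukin 15 to neighbouring cells, a role known in dendritic cells and macrophages. Both genes were low, and they varied most of the 9, with coefficients of variation of 24.9% for Il2ra and 14.7% for Il15ra.

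Il2ra lay at 17.3 CPM in CT10 of day 1 and 16.9 CPM in CT2 of day 2, and between 24.9 and 38.2 CPM in the other 10 libraries. Il15ra lay at 23.0 and 23.7 CPM in the same 2 libraries, and between 26.8 and 36.9 CPM in the others. The low values thus fell at different times on the 2 days, and the days disagreed at CT10, where Il2ra was 17.3 CPM on day 1 and 33.6 on day 2. The difference between the highest and lowest time was 0.71 ± 0.31 log2 for Il2ra (CT14 and CT2, adjusted p = 0.621 by edgeR) and 0.28 ± 0.21 for Il15ra (CT22 and CT2, adjusted p = 0.883 by edgeR). Both rested on single CT2 libraries: without CT2 of day 1 they were 1.12 and 0.54, and without CT2 of day 2 they were 0.40 and 0.06.

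These 2 libraries are those with the lowest marker sums of several other cell types. Over the 12 libraries, log2 CPM of Il2ra followed the regulatory T cell sum (Pearson r = 0.93, permutation p = 0.00022, adjusted over 6 relations 0.00132; Spearman rho = 0.91, p = 0.00016). The r was 0.94 within day 1 and 0.92 within day 2, and 0.65 (permutation p = 0.0367, n = 10) without CT10 of day 1 and CT2 of day 2. Ikzf2, Tnfrsf18 and Ctla4 weighed most in this sum, with means of 39.9, 38.4 and 21.8 CPM, against 10.8 for Foxp3. Tnfrsf18 was lowest in CT18 of day 1, and each other gene of the list was lowest in CT10 of day 1 or CT2 of day 2. The genes of this list were not tested singly against Il2ra. Il15ra with the monocyte and macrophage sum gave a Pearson r of 0.61 (permutation p = 0.0347, adjusted 0.104) and a Spearman rho of 0.34 (p = 0.276). It was 0.59 within day 1 and 0.68 within day 2, but it rested on those 2 libraries, without which r was -0.11 (permutation p = 0.755, n = 10).

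The dendritic cell list was set against both genes after the values had been seen. The permutation p-values given for it, adjusted or not, do not allow for that choice and are descriptive. Il15ra followed the dendritic cell sum with a Pearson r of 0.96 (permutation p = 1e-05, the smallest that the resamples can give, adjusted over 8 relations 8e-05) and a Spearman rho of 0.91 (p = 0.00016). The r was 0.99 within day 1, 0.94 within day 2 and 0.92 (permutation p = 0.00036, n = 10) without the 2 libraries. Il2ra followed it with a Pearson r of 0.96 (permutation p = 3e-05, adjusted 0.00012) and a Spearman rho of 0.87 (p = 0.00048), with 0.93 within day 1, 0.99 within day 2 and 0.82 (permutation p = 0.00385, n = 10) without the 2 libraries. The dendritic cell sum was 379.8 CPM in CT2 of day 2 and 399 CPM in CT10 of day 1, and between 538 and 732 CPM elsewhere. Fscn1 and Ccl22 weighed most in it, with means of 287 and 116 CPM. Xcr1, Clec9a, Cd209a and Zbtb46 averaged from 8.69 to 14.1 CPM, and the genes of the list were not tested singly. From which cells the Il2ra and Il15ra reads came was not tested. The p-values treat the 2 libraries of a time as independent.

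**Figure D5:**
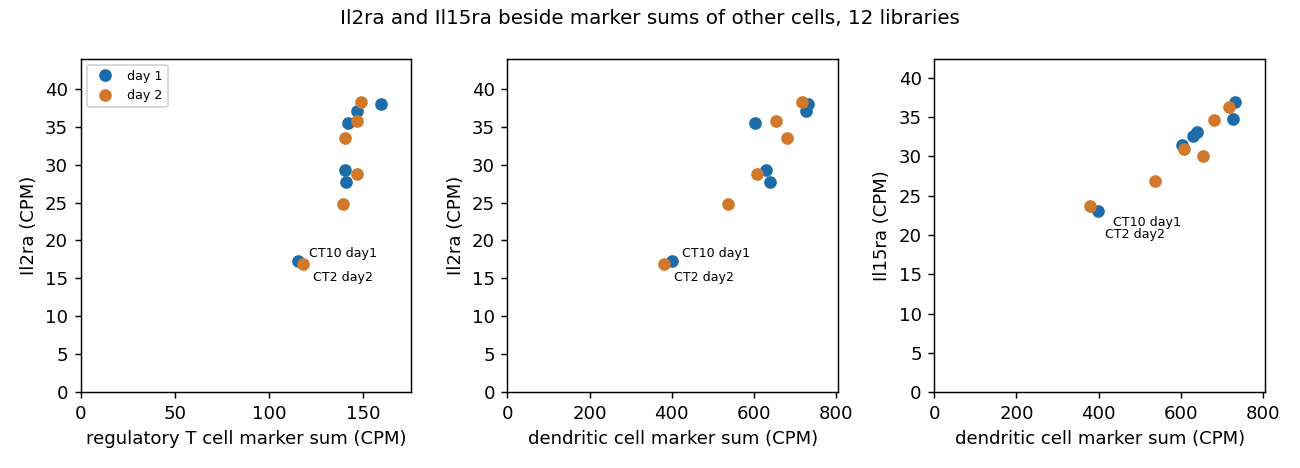
CPM of Il2ra and Il15ra against the summed CPM of marker genes, 1 point per library, coloured by day. The 2 named libraries, CT10 of day 1 and CT2 of day 2, have the lowest sums and the lowest Il2ra (17.3 and 16.9) and Il15ra (23.0 and 23.7), and the remaining 10 points rise with the dendritic cell sum.

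Jak1 (ENSMUSG00000028530.14, chromosome 4, 101152367 to 101265282, minus strand) encodes the kinase on the cytokine-specific chains. It had the highest count of the 9 genes and was nearly flat, from 1171 to 1373 CPM with a median of 1245 and a coefficient of variation of 4.24%. The largest difference between times was 0.08 ± 0.08 log2 (CT10 and CT6, adjusted p = 0.937 by edgeR), and the amplitude was 0.01 ± 0.03. CT2 of day 2 was the highest library at 1373 CPM, and CT2 of day 1 was at 1196 CPM. CT10 of day 1 came next to the highest at 1315 CPM. The 2 highest Jak1 values thus fell in the 2 libraries with the lowest marker sums of several other cell types. Over the 12 libraries, log2 CPM of Jak1 had a Pearson r of -0.84 with Il15ra, -0.77 with Il2ra and 0.73 with Il2rg. The part of other cells in the Jak1 values was not tested.

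Jak3 (ENSMUSG00000031805.17, chromosome 8, 71676296 to 71690575, plus strand) encodes the kinase on the gamma chain. It ranged from 122 to 192 CPM with a median of 160.4 and a coefficient of variation of 11.7%, and its days crossed. On day 1 it stood at 144, 122, 172, 163, 171 and 157 CPM from CT2 to CT22. On day 2 it stood at 169.7, 179.9, 147, 146, 158 and 192 CPM. Jak3 was thus higher on day 2 at CT2, CT6 and CT22, and higher on day 1 at the other 3 times. It had the smallest p of the 9 genes in the test of whether the 24 h wave differed between days (unadjusted p = 0.0114, adjusted p = 0.825 by edgeR). In that test 0% of all genes passed and 4.44% had an unadjusted p under 0.05, and of the members only Jak3 did. Jak3 shares its strand with Insl3, which overlaps it and had a mean of 46.4 counts, and Jak1 is overlapped on the other strand by Raver2.

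Ligands of these receptors were scarce in the libraries. Of 8 listed, Il4, Il9, Il13 and Tslp did not pass the filter on low counts, and Il7 and Il2 had means of 0.303 ± 0.164 and 0.592 ± 0.157 CPM (SD, n = 12). Il15, the ligand presented by the product of Il15ra, was at 9.61 and 8.94 CPM at CT22 and at 4.21 and 7.06 CPM at CT10 (adjusted p = 0.708 by edgeR). Il21 had a mean of 0.276 CPM, with 0.427 and 0.416 at CT6 against 0.0708 and 0.202 at CT10 (adjusted p = 0.502 by edgeR). None of the 4 tested ligands passed any test.

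Of 18 other cytokine receptor genes, among them Il9r for interleukin 9, 0 passed the 24 h test or the test of times. An unadjusted p under 0.05 was held by 4 and 6 of the 18, beside 13.3% and 12.7% of all genes. The median difference of the list between highest and lowest time was 0.22 log2, as over genes of at least 5 CPM. In the test of times the nearest to the threshold were both chains of the interleukin 18 receptor. Il18r1, the binding chain, stood at 174 and 178 CPM at CT10 and at 123 and 117 CPM at CT14, a difference of 0.55 ± 0.08 log2 (adjusted p = 0.0697 by edgeR). Its order of CT10 above CT14 was that of Il7r. Il18rap, the accessory chain, was at 91.2 and 77.3 CPM at CT6 and at 61.0 and 55.5 CPM at CT14, a difference of 0.53 ± 0.09 (adjusted p = 0.168 by edgeR).

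Downstream of the receptors, none of 9 other JAK and STAT genes passed either test. Of them, 2 and 3 had an unadjusted p under 0.05, beside 13.3% and 12.7% of all genes. Stat4, which acts below the interleukin 12 receptor, was at 123 and 105 CPM at CT2 and at 85.9 and 93.4 CPM at CT22 (adjusted p = 0.294 by edgeR). Among 18 feedback inhibitors and phosphatases, 0 passed, and 4 and 3 had an unadjusted p under 0.05, beside 13.3% and 12.7% of all genes. Cish, an inhibitor that STAT5 induces, was highest at CT14 with 13.7 and 13.2 CPM and lowest at CT2 with 7.32 and 8.04 CPM, a difference of 0.81 ± 0.16 log2 (adjusted p = 0.202 by edgeR). Socs1, which blocks JAK kinases, was at 27.1 CPM in both CT14 libraries and at 19.6 and 21.05 CPM at CT6 (adjusted p = 0.305 by edgeR). In this list 7 of 18 genes had their highest mean at CT14, the time at which Il7r was lowest, against 2976 of all 16396 genes. The count was 5 of 9 among the other JAK and STAT genes and 3 of 18 among the other cytokine receptor genes.

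Among 15 targets of interleukin 7 and STAT5, 0 passed. Of them, 5 and 6 had an unadjusted p under 0.05, beside 13.3% and 12.7% of all genes. Hk2, the glycolytic enzyme hexokinase, was at 16.9 and 18.6 CPM at CT22 and at 9.20 and 11.5 CPM at CT10, a difference of 0.78 ± 0.13 log2 (adjusted p = 0.127 by edgeR). Bcl6, a repressor of transcription, was at 30.4 and 33.7 CPM at CT22 and at 23.7 and 24.6 CPM at CT10 (adjusted p = 0.180 by edgeR). Both times are also those of high and low monocyte and macrophage sums, 1663 and 2048 CPM at CT22 against 659 and 1009.6 CPM at CT10, and the part of those cells in these values was not tested.

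Genes known to control Il7r were set beside it. Of 16 regulators, 0 passed, and 4 and 3 had an unadjusted p under 0.05, beside 13.3% and 12.7% of all genes. Zeb2, a transcriptional repressor that macrophages also express, was at 35.8 and 50.7 CPM at CT22 and at 11.9 and 22.0 CPM at CT10 (adjusted p = 0.234 by edgeR), with the marker sums just given. Nr3c1, the glucocorticoid receptor, differed by 0.20 ± 0.05 log2, from 149 and 155 CPM at CT14 to 135 and 130.4 CPM at CT6 (adjusted p = 0.340 by edgeR).

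Of 11 FOXO1 targets other than Il7r, a list chosen with earlier results of these data known, 0 passed either test. In each test 4 had an unadjusted p under 0.05, beside 13.3% and 12.7% of all genes. In 7 of the 11 the lowest mean was at CT14, as for Il7r, against 3297 of all 16396 genes. The same held for 8 of the 18 other cytokine receptor genes and for 3 of the 16 regulators. Pik3ip1, an inhibitor of PI3 kinase, went from 174 and 163 CPM at CT10 to 114 and 112 CPM at CT14, a difference of 0.58 ± 0.09 log2 (adjusted p = 0.0694 by edgeR). Sesn1, which restrains the mTOR kinase, went from 97.3 and 92.0 CPM to 78.6 and 73.6 CPM between the same times, by 0.31 ± 0.07 log2 (adjusted p = 0.160 by edgeR). The list's median difference was 0.39 log2, against 0.22 over genes of at least 5 CPM.

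Glucocorticoid-induced genes were the only list of the 8 given here with genes past the threshold. The lists were chosen with earlier results of these data known, so such counts are descriptive. This list also shares Pik3ip1 with the FOXO1 targets and Cebpb with the regulators of Il7r. In the test of times 2 of 19 passed, and in the 24 h test 0 did, beside 0.256% and 0% of all genes. In the 24 h test 9 had an unadjusted p under 0.05, and in the test of times 5 did, beside 13.3% and 12.7% of all genes. The 9 ran in different directions, with 6 highest at CT10 and 3 (Dusp1, Cebpb and Cebpd, singled out after their values were seen) highest at CT22 and lowest at CT10, the times of high and low monocyte and macrophage sums. Over all tested genes, 2183 had an unadjusted p under 0.05 in the 24 h test. Of those, 408 were highest at CT10, and 348 were highest at CT22 and lowest at CT10. Ddit4, an inhibitor of mTOR, rose from 51.9 and 60.1 CPM at CT6 to 113 and 111 CPM at CT10, by 1.00 ± 0.12 log2 (adjusted p = 0.0216 by edgeR). Cxcr4, a chemokine receptor, rose from 58.2 and 55.4 CPM at CT2 to 96.6 and 102 CPM at CT10, by 0.81 ± 0.09 log2 (adjusted p = 0.0227 by edgeR). CT10 was the time of the highest mean in 9 of the 19 genes, as for Il7r, against 3573 of all 16396. It was so too in 7 of the 16 regulators, and in 1 of the 9 other JAK and STAT genes.

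The genes whose pattern over the 12 libraries was most like each member were found by the Pearson r of log2 CPM among 9640 named genes of at least 5 CPM, and they are given as a description. For Il7r they were Akr1b10, Atp9b, Cdc42bpg, Dnmt3b and Iars2, each at 0.94. Il2ra was matched more closely, by Plxnd1 and F11r at 0.98, and Il15ra by Cacnb3 and Tbc1d4 at 0.97. For Il2rg they were Dhx15 at 0.96 and Pfn1 at 0.94, for Il2rb Ubap1 at 0.95 and Desi1 at 0.93, and for Il4ra Ssrp1 at 0.93 and Kars at 0.88. Il21r was nearest to Alkbh5 at 0.95 and Acly at 0.94, Jak1 to Myh9 at 0.96 and Pik3cd at 0.95, and Jak3 to Igfbp4 at 0.90 and Yars at 0.88.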

How the data were processed

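Polyadenylated RNA of CD8+ T cells was sequenced at 6 circadian times on 2 days. Per the submitters' processing notes, bcl2fastq 2.19, Trimmomatic 0.35, STAR 2.5.1b, RSEM 1.2.28 and the mouse build GRCm38 were used. No source used here names the gene annotation. Raw read counts per gene were deposited in the layout of STAR, with 3 columns by strand. Column 4 was used, since 93.6% to 95.0% of reads fell outside genes in column 3 against 13.7% to 16.3% in column 4. Rows that name no gene held 29.3% to 31.2% and were left out. The authors also deposited RSEM expected counts (estimated counts, rounded here before use), TPM and FPKM, per the file headers. Effective gene lengths in those tables vary between libraries. Of the 50600 identifiers, 50376 matched GENCODE M21, whose GRCm38 coordinates are given, and promoter sequences are from RefSeq (GRCm38.p6).

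Counts were tested in R 4.3.3 with edgeR 4.0.16 (TMM scaling, filterByExpr by circadian time, quasi-likelihood F tests, Benjamini-Hochberg adjustment over 16396 genes, threshold 0.05). The 24 h test used a cosine and a sine, the test of times 5 coefficients, the day test a day term beside the wave, and the interaction test the wave by day. The common biological coefficient of variation was 0.0967. DESeq2 1.42.0 and limma 3.58.1 on log2(TPM + 1) or log2(TPM + 0.1) were alternatives, with other filters, scalings and counts, a replicate block, and each library left out in turn. Relations used 100000 two-sided permutations of log2(CPM + 0.1) over 12 libraries. In the labels a replicate number stands for a collection day, which pairs libraries: over 10153 genes, deviations between days correlated between the 15 pairs of times at -0.60 to 0.35 (median 0.08), above 0.1 in 6. All 9 members were named, and of each other list every passing gene and the 2 of smallest p in the test of times. A gene that this rule took is not reported here. For each member the most alike genes by Pearson r were named. The members, lists and marker genes were chosen with earlier results of these data known.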

Additional observations from a re-analysis of the deposited data

Results flagged for a closer look

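Il2rg in the library of CT6 on day 1 stood at 267.5 CPM, apart from the other 5 libraries of that day, the nearest of which was at 306 CPM and the highest at 318 CPM. That library also held the lowest CPM of Il4ra, Il21r, Jak1 and Jak3, the highest of Il15ra, and the lowest T cell and CD8 marker sum (4309 CPM). Jak1 in the library of CT2 on day 2 stood at 1373 CPM, while the nearest library of that day was at 1260 CPM and the lowest at 1214 CPM. CT2 of day 2 was among the 2 libraries lowest in other cell markers and had the highest T cell and CD8 marker sum (5394 CPM). The Il2rg and Jak1 values were picked out by the size of the gap to the nearest library against the range of the 6 libraries of a day. There were 18 such groups of 6, of which chance picks about 1 in 20.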

How the results depend on the processing

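Alternatives that left out both libraries of CT2 or CT14, or the 2 libraries lowest in other cell markers, were chosen after seeing the data. The 24 h test, with 0 genes passing, gave 323 with no filter on low counts, 246 by DESeq2, 431 without both CT2 libraries, 74 without the 2 libraries lowest in other cell markers, and 0 to 145 with 1 library left out (145 without CT2 of day 2). In the test of times, with 42 genes, these settings gave 2146, 516, 527, 1359 and 6 to 1745 (1745 without CT2 of day 2 and 664 without CT2 of day 1, otherwise at most 45 with 1 library left out). It gave 21 and 27 by limma on log2(TPM + 1) and log2(TPM + 0.1), and 0 without both CT14 libraries. Members passing it were 2 with no filter (Il7r and Il2ra), 1 by DESeq2, without both CT2 libraries and without the marker-poor pair (Il7r each time), and 0 to 2 with 1 library left out (Il7r and Il21r without CT2 of day 2). The day test gave 6 genes by DESeq2 and 0 to 2 with 1 library left out, and the interaction test 0 to 1. With the day as a replicate block, the test of times gave 20 genes, Il7r had an adjusted p of 0.261, and the block changed no call of a member.

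Of 423 values of single members under alternatives, 404 kept their direction and call, 8 came to pass and 11 changed direction. By limma on TPM, the amplitude of Il4ra was 0.0042 and 0.0043 with its peak moved, and the differences between times were -0.0297 and -0.0298 for Il2rg and -0.0377 and -0.0383 for Il4ra. The peak also moved for Jak1 without CT10 of day 1 (amplitude 0.0095), without CT22 of day 2 (0.0058) and without the marker-poor pair (0.027), and for Il15ra without that pair (0.023). With 1 library left out, the amplitude of Jak1 ran from 0.0038 to 0.034 and the difference for Jak3 from -0.042 (without CT6 of day 1) to 0.52. Il2rb against the NK cell sum had r from -0.26 to 0.10 with 1 library left out, 0.10 without CT2 of day 1, and Il15ra against the monocyte sum had r from 0.42 to 0.72, the last without CT6 of day 1 (adjusted permutation p = 0.0432). The causes were not tested. Where a left-out pair held a gene's highest or lowest time, that setting gave no value. The counting error was largest for Il2ra and Il15ra, at most 4.72% and 3.98%, beside coefficients of variation of 24.9% and 14.7%.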
